A study of Mus musculus with 12 samples.

Results

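The genes described here are 38 members of the NF-kB pathway, followed through group 2 innate lymphoid cells (ILC2s) and eosinophils cultured apart or together. They were chosen by symbol, and all 38 were found among the 49315 genes of the count table. They are the 5 NF-kB subunits, 3 classical and 3 nuclear IkB proteins, 4 kinases, 5 MyD88 and IRAK adaptors, 8 TRAF, cIAP and related proteins, 5 feedback regulators and 5 further target genes.

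RNA was sequenced from 12 libraries of C57BL/6 mouse cells, 3 in each of 4 groups. ILC2s from lung had been expanded in IL-33, IL-25, IL-2 and IL-7 and then held for 48 h in IL-2 and IL-7. Eosinophils from blood were the cells not retained by B220 and CD90 beads and had been held for 24 h in IL-33. After washing, each was cultured for 24 h without cytokines, either alone or with the other cell, giving the groups ILC2 alone, ILC2 with eosinophils, eosinophil alone and eosinophil with ILC2s. All eosinophils in the study carried the IL-33 pretreatment, so an effect of eosinophils on ILC2s and an effect of that pretreatment cannot be told apart.

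NF-kB factors are dimers of RelA, RelB, c-Rel, p50 and p52, the last pair being made from the precursors encoded by Nfkb1 and Nfkb2. In resting cells IkB proteins hold the dimers in the cytoplasm. Receptors of the IL-1 family, among them the IL-33 receptor, recruit MyD88 and IRAK kinases, which act through TRAF6 on the IKK complex, and IKK marks IkB for destruction. TNF family receptors use other TRAFs and the cIAP proteins, and a slower branch runs through the kinase NIK (Map3k14) to p52 and RelB. The freed dimers switch on genes that include their own inhibitors, such as IkB alpha and A20. IL-33 is a main activating signal of ILC2s and also acts on eosinophils.

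The libraries held between 16769929 and 22928961 counts each, so that the floor of 3 counts lay at 0.131 to 0.179 CPM (counts relative to library size). The labelled cell types carried their markers: the 11 eosinophil markers summed to between 8140 and 10900 CPM in eosinophil libraries and between 5.32 and 9.87 CPM in ILC2 libraries. The 12 ILC2 and lymphoid markers summed to between 3100 and 5420 CPM in ILC2s and between 54.5 and 67.7 CPM in eosinophils. Whether replicates came from separate animals or cultures is not in the labels, so p-values measure only the spread between these libraries, which may be technical. In bulk samples fewer cells of a type and less RNA per cell cannot be told apart. Levels below are scaled CPM, for which library sizes were scaled by TMM over the 12 libraries. Each log2 fold change (± SE) and adjusted p comes from edgeR's quasi-likelihood test within the groups compared, with Benjamini-Hochberg adjustment over all genes tested. Genes with an adjusted p under 0.05 are said to rise or fall.

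Promoter sequence was available for 31 of the 38 members. In the RefSeq windows on GRCm38.p6, from 250 bases before to 50 bases after a transcript start, 15 of these 31 members (48.4%) held the kappa-B consensus, the binding motif of NF-kB dimers, on either strand. It was held by 9.55% of the 27025 genes with such a window and by 10.5% of the 17491 protein-coding ones. Several members are on the list because they are known targets of NF-kB, so this share describes the choice of genes. The stretches below belong to 6 members picked from those with a match, of which Bcl3, Ier3 and Nfkbia rose and Rel, Tnip1 and Cyld fell in cocultured ILC2s. Other members prominent below had none: Myd88, Birc3, Traf1 and Icam1 held no match, and Malt1, Cd83 and Nfkbiz had no window. Capitals mark the kappa-B matches, and overlapping matches on both strands were joined.
Bcl3: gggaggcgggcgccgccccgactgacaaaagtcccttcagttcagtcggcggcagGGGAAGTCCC
Ier3: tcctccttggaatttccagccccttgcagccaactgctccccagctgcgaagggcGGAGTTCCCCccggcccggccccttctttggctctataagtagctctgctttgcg
Nfkbia: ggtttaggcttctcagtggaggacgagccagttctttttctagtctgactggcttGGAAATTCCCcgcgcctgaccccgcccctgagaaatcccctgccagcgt
Rel: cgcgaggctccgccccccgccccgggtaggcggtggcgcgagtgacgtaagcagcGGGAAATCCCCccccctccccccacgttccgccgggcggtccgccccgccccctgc
Tnip1: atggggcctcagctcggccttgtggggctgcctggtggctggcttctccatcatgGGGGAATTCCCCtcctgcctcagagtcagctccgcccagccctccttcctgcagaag
Cyld: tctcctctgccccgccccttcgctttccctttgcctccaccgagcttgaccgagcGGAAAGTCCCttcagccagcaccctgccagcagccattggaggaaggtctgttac
These stretches lie at chr7:19822744-19822808 (minus strand), chr17:35821566-35821675 (plus), chr12:55492628-55492731 (minus), chr11:23771006-23771116 (minus), chr11:54962942-54963053 (minus) and chr8:88696818-88696927 (plus). The match begins 92 bases before the start in both Ier3 and Rel, 58 in Tnip1, 29 in Nfkbia and 155 in Cyld, and just after the start in Bcl3. In cocultured ILC2s 4 of the 15 members with a match rose, 5 fell and 2 could not be tested, against 5 risen and 10 fallen of the 16 without one (36.8% of all genes tested rose and 35.6% fell). In cocultured eosinophils the counts were 8 risen and 2 fallen with a match, and 4 and 4 without (11.4% and 13.5% of all genes). A match is a description of the letters and was not tied to binding by any measurement in these data.

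In ILC2s the culture with eosinophils moved NF-kB pathway transcripts in both directions, with Bcl3, Myd88, Ier3 and Cd83 rising more than 2-fold and Malt1 falling more than 2-fold. Of the 35 members tested 28 were called (80.0%), where 72.4% of all 14438 tested genes were. The 11 that rose made up 31.4% (36.8% of all genes) and the 17 that fell 48.6% (35.6% of all genes). The median log2 fold change was -0.14 over the members and 0.00293 over all genes. Members were well expressed (median of mean levels 74.5 scaled CPM, against 23 over all genes tested). With genes under a mean of 10 CPM left out, 81.2% of 32 members and 81.7% of 9160 genes were called, so the members' share was near that of all genes at such levels. Cd40, Tnfaip2 and Tnip3 were too low in ILC2s to be tested. Cd83 had 5 counts in ILC2s alone and passed the low-count filter only through the cocultured group.

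In eosinophils the culture with ILC2s raised 13 members and lowered 9 of 38. These 57.9% compare with 24.9% of all 13109 genes tested, the risen members making 34.2% (11.4% of all genes) and the fallen 23.7% (13.5% of all genes). With genes under a mean of 10 CPM left out, 57.6% of 33 members and 30.9% of 7896 genes were called. The median log2 fold change was 0.12 over the members and 0.00435 over all genes. Beyond 2-fold, Tifa rose and Ier3, Cd40, Traf1 and Cd83 fell. Tifa and Cd40 passed the low-count filter only through the group in which each was high.

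The 2 coculture comparisons share no library, and many members went opposite ways in them. Of 15 members called in both, 6 rose in ILC2s and fell in eosinophils (Nfkbiz, Bcl3, Map3k14, Myd88, Cd83 and Ier3), and 5 fell in ILC2s and rose in eosinophils (Rel, Nfkbid, Irak2, Tnip1 and Zc3h12a). Nfkb2, Birc3 and Icam1 rose in both, and Traf1 fell in both. The eosinophil calls of Map3k14, Cd83, Nfkbid and Nfkb2 were each lost when certain single libraries were left out. Opposite calls were also the larger share over the whole transcriptome, at 63.2% of the 2303 genes called in both comparisons against 73.3% of the 15 members, so opposite calls were common outside the pathway too.

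**Figure D1:**
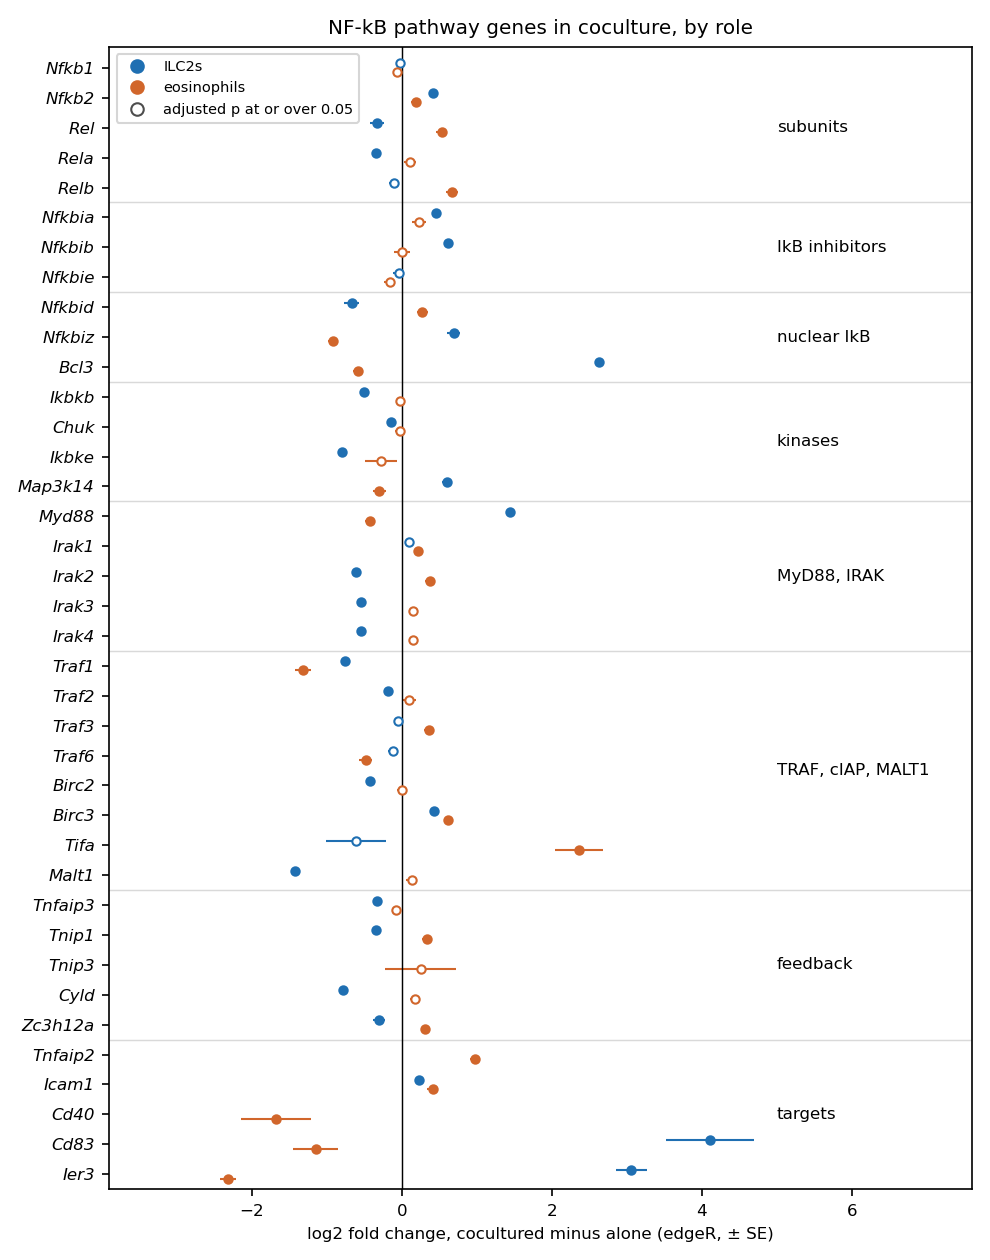
Log2 fold change with SE of each member in cocultured against separately cultured ILC2s (blue) and eosinophils (orange), grouped by role, with open circles for genes at or over an adjusted p of 0.05. Bcl3 stood at 2.63 in ILC2s and -0.58 in eosinophils, and Ier3 at 3.06 and -2.32.

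Among the subunits, Nfkb1 was the most abundant member in ILC2s and did not pass the test in either cell. It encodes the p50 precursor and stood at 849 ± 13.1 scaled CPM in ILC2s alone and 835 ± 12.7 with eosinophils, and at 448 ± 12.2 and 437 ± 2.34 in eosinophils (SD, n = 3). Library totals in place of TMM moved the median of all ILC2 genes by -0.156, and upper quartile scaling moved it by -0.067. With library totals Nfkb1 (-0.19), Relb (-0.26) and Nfkbie (-0.20) passed as falls in ILC2s. With upper quartile scaling Nfkb1 (-0.10, edgeR adjusted p = 0.016) and Relb (-0.17, edgeR adjusted p = 0.013) did. Relb also passed as a fall without ILC2 alone replicate 2 (-0.16, edgeR adjusted p = 0.034). Nfkb2, the p52 precursor, was read at 86.1, 87.5 and 89.1 scaled CPM in ILC2s alone and at 121, 115 and 114 with eosinophils. All 3 cocultured libraries lay above the others, and the rise was 0.41 ± 0.042 on the log2 scale (edgeR adjusted p = 8e-10). In eosinophils Nfkb2 went from 105, 95.6 and 105 to 113, 120 and 123 scaled CPM, a small rise (0.19 ± 0.063, edgeR adjusted p = 0.041) that was lost without any 1 of 5 of the 6 libraries (edgeR adjusted p 0.051 to 0.17).

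Rela, the subunit with the strongest activation domain in the classical branch, fell in ILC2s from 135, 128 and 134 to 105, 106 and 104 scaled CPM (-0.35 ± 0.04, edgeR adjusted p = 7.7e-09). In eosinophils its libraries overlapped, with 109, 89.6 and 116 scaled CPM alone and 119, 115 and 113 with ILC2s (0.11 ± 0.08, edgeR adjusted p = 0.35). Rel, the lymphoid and myeloid subunit c-Rel, went opposite ways. It was read at 22.2, 22.2 and 21.6 scaled CPM in ILC2s alone and 18.4, 19.8 and 14.7 with eosinophils (-0.33 ± 0.091, edgeR adjusted p = 0.0022). In eosinophils it was read at 46.9, 43.8 and 43.3 scaled CPM alone and 61.9, 70.7 and 64.1 with ILC2s (0.53 ± 0.075, edgeR adjusted p = 0.00014). Neither pair of groups overlapped. Relb, the partner of p52, rose in eosinophils from 36.5, 31.9 and 40.7 to 61.4, 57.2 and 58.2 scaled CPM (0.67 ± 0.085, edgeR adjusted p = 5.3e-05). In ILC2s Relb stood at 48.3, 40.8 and 42.8 scaled CPM alone and 41.6, 40.3 and 41.0 with eosinophils, with overlapping libraries (-0.11 ± 0.061, edgeR adjusted p = 0.12).

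Of the classical inhibitors, Nfkbia and Nfkbib rose in ILC2s (36.8% of all genes rose) and none was called in eosinophils (24.9% of all genes were). Nfkbia encodes IkB alpha, the inhibitor that NF-kB induces most directly. Its ILC2 libraries went from 69.1, 68.2 and 63.1 to 95.8, 90.7 and 90.7 scaled CPM without overlap (0.46 ± 0.047, edgeR adjusted p = 7.8e-10). In eosinophils it was read at 122, 97.1 and 131 scaled CPM alone and at 142, 131 and 147 with ILC2s (0.23 ± 0.09, edgeR adjusted p = 0.076). It passed there as a rise with library totals, no low-count filter and the replicate block (edgeR adjusted p = 0.027, 0.0062 and 0.0015). So it did in the fit of all 12 libraries and without eosinophil alone replicate 3 (edgeR adjusted p = 0.013 and 0.015). The library with 97.1 was the second of the eosinophil alone group, which was the lowest of its 3 libraries for 15 members and the highest for 9. Nfkbib, which encodes IkB beta, went in ILC2s from 28.9, 28.2 and 28.2 to 46.2, 44.0 and 41.8 scaled CPM (0.62 ± 0.062, edgeR adjusted p = 4.7e-10). Part of its exons overlaps the oppositely oriented Sirt2 and Ccer2, and the strand setting of the counting is not given. In eosinophils Nfkbib was at 42.1, 36.5 and 52.9 scaled CPM alone and 45.3, 44.7 and 44.0 with ILC2s. Nfkbie, the gene of IkB epsilon, was not called in either cell, at 26.5, 27.1 and 23.9 against 25.7, 24.9 and 24.8 scaled CPM in ILC2s and 59.7, 69.3 and 63.7 against 59.0, 59.2 and 57.6 in eosinophils (edgeR adjusted p = 0.6 and 0.13).

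All 3 nuclear IkB genes changed in both cells, each in opposite directions. Of all genes, 72.4% were called in ILC2s and 24.9% in eosinophils, and 63.2% of those called in both went opposite ways. Bcl3 encodes a nuclear partner of p50 and p52 homodimers that can give them an activating function. It was read at 21.7, 21.2 and 20.0 scaled CPM in ILC2s alone and 125, 134 and 131 with eosinophils, a 6.18-fold rise (2.63 ± 0.053, edgeR adjusted p = 3.4e-26). In eosinophils it fell from 84.7, 80.7 and 91.3 to 56.1, 60.8 and 58.6 scaled CPM (-0.58 ± 0.067, edgeR adjusted p = 2.3e-05). Cells alone had more Bcl3 in eosinophils, and cocultured cells more in ILC2s. Nfkbiz encodes IkB zeta, an inducible cofactor at secondary response genes. It rose in ILC2s from 16.4, 16.4 and 19.8 to 28.8, 30.6 and 26.7 scaled CPM (0.69 ± 0.084, edgeR adjusted p = 1.9e-08) and fell in eosinophils from 93.8, 90.5 and 91.9 to 50.2, 50.5 and 48.5 (-0.92 ± 0.062, edgeR adjusted p = 1.2e-07). Nfkbid, the gene of IkB NS, did the reverse. It fell in ILC2s from 14.4 ± 1.26 to 9.11 ± 0.615 scaled CPM (SD, n = 3, log2 fold change -0.67 ± 0.10, edgeR adjusted p = 1.5e-06) and rose in eosinophils from 77.4 ± 8.27 to 95.4 ± 0.635 (0.27 ± 0.073, edgeR adjusted p = 0.014). The eosinophil rise was lost without eosinophil alone replicate 1 or eosinophil with ILC2s replicate 3 (edgeR adjusted p = 0.07 and 0.061).

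**Figure D2:**
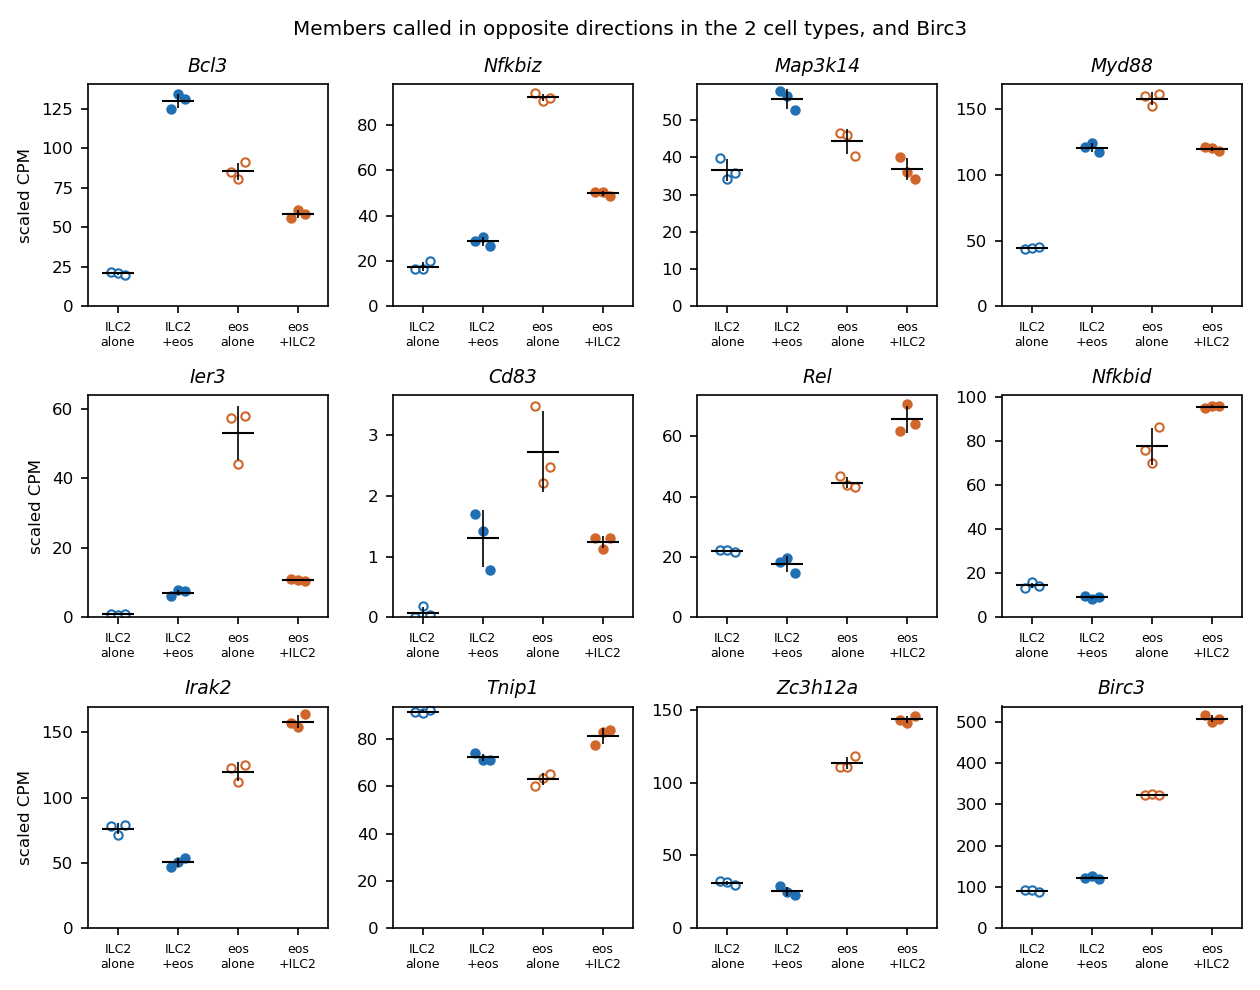
Scaled CPM in each library (points), with the group mean and SD (black), for the 11 members called in opposite directions in ILC2s (blue) and eosinophils (orange) and for Birc3, with open points for cells cultured alone. Bcl3 lay between 125 and 134 in cocultured ILC2s and between 20.0 and 21.7 in ILC2s alone.

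The kinases of the classical branch fell in ILC2s (35.6% of all genes fell), and NIK rose (36.8% of all genes rose). Ikbkb encodes IKK beta, the kinase that phosphorylates IkB alpha, and fell in ILC2s from 160, 161 and 156 to 115, 111 and 111 scaled CPM (-0.51 ± 0.039, edgeR adjusted p = 1.6e-12). Chuk, the gene of IKK alpha, fell by less (-0.14 ± 0.045, edgeR adjusted p = 0.0058). Ikbke, whose product IKK epsilon acts mainly in interferon induction, fell in ILC2s from 131, 142 and 132 to 75.7, 78.9 and 79.8 scaled CPM (-0.80 ± 0.044, edgeR adjusted p = 8.9e-16). Ikbke was low in eosinophils, at 5.41, 4.13 and 4.09 scaled CPM alone and 3.65, 4.39 and 3.36 with ILC2s, and did not pass the test there (edgeR adjusted p = 0.37). Neither Ikbkb nor Chuk was called in eosinophils (edgeR adjusted p = 0.81 and 0.76). For Ikbkb the eosinophil libraries overlapped, at 364, 375 and 344 scaled CPM alone and 353, 371 and 364 with ILC2s. Map3k14, the NIK gene, rose in ILC2s from 39.8, 34.3 and 35.7 to 57.8, 56.6 and 52.8 scaled CPM (0.60 ± 0.06, edgeR adjusted p = 5.1e-10). In eosinophils Map3k14 went from 46.5, 45.9 and 40.5 to 40.2, 36.0 and 34.3 scaled CPM (-0.30 ± 0.088, edgeR adjusted p = 0.025). That fall was lost with scaling by library totals (edgeR adjusted p = 0.063) and without eosinophil alone replicate 1 or eosinophil with ILC2s replicate 2 or 3 (edgeR adjusted p = 0.099, 0.085 and 0.13).

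In ILC2s Myd88 rose (36.8% of all genes rose), while Irak2, Irak3 and Irak4 fell (35.6% of all genes fell) and Irak1 was not called. Myd88 encodes the adaptor shared by IL-1 family and Toll-like receptors and rose in ILC2s from 43.6, 44.4 and 45.0 to 121, 124 and 117 scaled CPM, a 2.71-fold change (1.44 ± 0.046, edgeR adjusted p = 1.6e-21). In eosinophils it fell from 160, 152 and 161 to 121, 120 and 118 scaled CPM (-0.43 ± 0.056, edgeR adjusted p = 5.8e-05). The cocultured cells thus stood at 121 ± 3.51 and 119 ± 1.12 scaled CPM (SD, n = 3), a difference that did not pass the test (log2 0.01, edgeR adjusted p = 0.87) but did with scaling by library totals (0.41, adjusted p = 1.6e-08) and by upper quartile (0.21, adjusted p = 0.00033). Part of the Myd88 exons overlaps the oppositely oriented Acaa1a. Irak2, a kinase-like protein that sustains the signal, fell in ILC2s from 78.2, 71.7 and 79.2 to 46.8, 50.5 and 54.0 scaled CPM (-0.61 ± 0.055, edgeR adjusted p = 5.9e-11). In eosinophils Irak2 rose from 123, 112 and 125 to 157, 154 and 164 scaled CPM (0.37 ± 0.061, edgeR adjusted p = 0.00052).

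Irak4, the first kinase recruited to MyD88, and Irak3, which encodes the inhibitory IRAK-M, both fell in ILC2s (-0.54 ± 0.053 and -0.55 ± 0.051 on the log2 scale). Part of the Irak4 exons overlaps the oppositely oriented Twf1, part of those of Irak3 Tmbim4, and part of those of Nfkb2 Psd. Irak3 stood at 71.5 ± 1.76 scaled CPM in ILC2s alone and 49.0 ± 2.15 with eosinophils, and at 256 ± 11.7 and 289 ± 11.9 in eosinophils (SD, n = 3). Neither was called in eosinophils (edgeR adjusted p = 0.097 for Irak3 and 0.072 for Irak4), although both passed there in the fit of all 12 libraries (edgeR adjusted p = 0.015 and 0.017), as did Nfkbia (0.013) and the deubiquitinase gene Cyld (0.0046). Irak1, the kinase that carries the signal on to TRAF6, rose in eosinophils (0.22 ± 0.055, edgeR adjusted p = 0.0086) and did not pass in ILC2s (0.09 ± 0.043, edgeR adjusted p = 0.05).

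The receptor-proximal TRAF, cIAP and MALT1 group had 1 member higher and 4 lower of 8 in ILC2s, and 3 higher and 2 lower in eosinophils. The 62.5% called in each cell compare with 72.4% of all genes in ILC2s and 24.9% in eosinophils. Malt1 encodes a paracaspase that acts downstream of antigen receptors and fell in ILC2s from 85.7, 90.5 and 98.3 to 33.2, 34.5 and 35.4 scaled CPM (-1.42 ± 0.055, edgeR adjusted p = 2e-19). It was not called in eosinophils, at 54.8 ± 3.39 and 61.1 ± 4.15 scaled CPM (SD, n = 3, edgeR adjusted p = 0.27). Traf1, an adaptor that NF-kB induces and that joins TNF receptor complexes, fell in both cells. In ILC2s it went from 202, 200 and 206 to 118, 121 and 124 scaled CPM (-0.76 ± 0.038, edgeR adjusted p = 1e-16), and in eosinophils from 26.5, 21.9 and 25.6 to 10.0, 9.45 and 10.8 (-1.32 ± 0.11, edgeR adjusted p = 1.1e-06). Birc3, which encodes the inducible ubiquitin ligase cIAP2, rose in both. Its libraries were at 93.0, 92.0 and 87.2 scaled CPM in ILC2s alone and 121, 127 and 120 with eosinophils (0.43 ± 0.043, edgeR adjusted p = 4.5e-10). In eosinophils they were at 322, 326 and 322 scaled CPM alone and 516, 501 and 508 with ILC2s (0.62 ± 0.051, edgeR adjusted p = 8.5e-07).

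Birc2, the cIAP1 gene, lies 11.6 kb from Birc3 on chromosome 9 and fell in ILC2s (-0.42 ± 0.05, edgeR adjusted p = 1.5e-08), with no call in eosinophils (edgeR adjusted p = 0.99). Traf2, which brings the cIAPs to TNF receptors, fell in ILC2s (-0.19 ± 0.054). Traf3, which keeps NIK low, rose in eosinophils from 176 ± 12.0 to 231 ± 11.1 scaled CPM (0.36 ± 0.067, edgeR adjusted p = 0.0013), while Traf6, the ligase downstream of MyD88, fell there (-0.48 ± 0.086, edgeR adjusted p = 0.0011). Traf3 and Traf6 were not called in ILC2s (edgeR adjusted p = 0.29 and 0.065), and both passed as falls there with library totals (-0.21 and -0.28) and upper quartile scaling (-0.12 and -0.19). Tifa, an adaptor that oligomerises TRAF6, was near the detection limit in 3 groups and rose in eosinophils from 43 counts to 249 (0.916 ± 0.329 to 4.79 ± 1.16 scaled CPM, log2 fold change 2.36 ± 0.32, edgeR adjusted p = 9.1e-05).

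All 4 feedback regulators that could be tested fell in ILC2s (35.6% of all genes fell), and 2 of 5 rose in eosinophils (11.4% of all genes rose). Cyld encodes a deubiquitinase that removes activating ubiquitin chains. It fell in ILC2s from 322, 336 and 332 to 192, 190 and 195 scaled CPM (-0.79 ± 0.038, edgeR adjusted p = 3.3e-17) and was not called in eosinophils (0.17 ± 0.058, edgeR adjusted p = 0.053). Tnfaip3, the gene of the ubiquitin-editing enzyme A20, fell in ILC2s from 64.6 ± 1.75 to 51.8 ± 1.74 scaled CPM (SD, n = 3, -0.33 ± 0.05, edgeR adjusted p = 1.5e-06). Its level in eosinophils was several times higher and did not pass the test, at 308 ± 7.49 and 297 ± 10.7 scaled CPM (edgeR adjusted p = 0.33). Tnip1 encodes ABIN1, the ubiquitin-binding partner of A20, and went from 91.7, 91.0 and 92.2 to 74.1, 71.4 and 71.4 scaled CPM in ILC2s (-0.35 ± 0.044, edgeR adjusted p = 3.3e-08). In eosinophils it rose from 60.4, 63.4 and 65.4 to 77.7, 82.9 and 83.8 scaled CPM (0.34 ± 0.066, edgeR adjusted p = 0.0017). Zc3h12a encodes Regnase-1, a nuclease that cuts cytokine messages. It fell in ILC2s from 32.4, 31.7 and 29.7 to 28.9, 24.8 and 22.8 scaled CPM (-0.30 ± 0.078, edgeR adjusted p = 0.0011) and rose in eosinophils from 111, 111 and 118 to 143, 141 and 146 (0.31 ± 0.057, edgeR adjusted p = 0.0011). Tnip3 had 16 and 30 counts in the ILC2 groups and 52 and 69 in the eosinophil groups and was not called in eosinophils (edgeR adjusted p = 0.76).

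Ier3, an immediate early gene linked to survival of stimulated cells, rose in ILC2s from 0.816, 0.631 and 1.05 to 6.17, 7.81 and 7.43 scaled CPM (3.06 ± 0.21, edgeR adjusted p = 1.3e-13). In eosinophils it fell from 57.3, 44.2 and 57.8 to 11.1, 10.8 and 10.5 scaled CPM (-2.32 ± 0.11, edgeR adjusted p = 3.8e-09). Cd83, a surface marker of activated antigen-presenting cells, had 5 counts over the 3 libraries of ILC2s alone and 91 with eosinophils, a ratio of 18.5 (exact 95% counting interval 7.65 to 58.4). By library it went from 0.0, 0.18 and 0.0349 to 1.70, 1.42 and 0.78 scaled CPM (edgeR adjusted p = 5e-07), and in eosinophils it fell from 2.72 ± 0.664 to 1.24 ± 0.103 (-1.15 ± 0.30, edgeR adjusted p = 0.012). That eosinophil fall was lost without eosinophil alone replicate 1 (edgeR adjusted p = 0.074). Cd83 could be tested in ILC2s only because of its level in the cocultured group.

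Tnfaip2, a TNF-induced gene of myeloid and endothelial cells, was an eosinophil transcript here. It rose from 35.6, 36.7 and 34.6 to 70.3, 71.5 and 72.3 scaled CPM (0.97 ± 0.068, edgeR adjusted p = 1.7e-07), and had 3 and 11 counts in the 2 ILC2 groups. Tnfaip2 and Traf3 are neighbours on chromosome 12, with 175.3 kb between them, and both rose in cocultured eosinophils. Relb and Bcl3, 179.0 kb apart on chromosome 7, went opposite ways there (0.67 and -0.58). Icam1, the adhesion molecule bound by leukocyte integrins, rose in both cells, from 51.9 ± 2.61 to 61.1 ± 1.79 scaled CPM in ILC2s (0.23 ± 0.052, edgeR adjusted p = 0.00033) and from 33.6 ± 1.61 to 45.6 ± 0.669 in eosinophils (0.41 ± 0.075, edgeR adjusted p = 0.0011). With library totals the ILC2 rise was lost (0.07, edgeR adjusted p = 0.22). Cd40, the costimulatory receptor of B cells and myeloid cells, had 43 counts in ILC2s alone and 8 with eosinophils. In eosinophils it had 61 and 21 counts (-1.68 ± 0.47, edgeR adjusted p = 0.018), a call lost without eosinophil alone replicate 1 or any eosinophil with ILC2s replicate (edgeR adjusted p 0.058 to 0.12).

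Transcripts of other cells were measured beside these changes. In ILC2s the eosinophil marker genes Siglecf and Prg2 stood at 0.228 and 0.0567 scaled CPM alone and 0.258 and 0.0717 with eosinophils, against 1370 and 403 in eosinophils alone. The 11 eosinophil markers summed to 5.32 to 6.58 CPM in ILC2s alone and 8.34 to 9.87 with eosinophils, a difference carried by Ptger3 (1.74 and 5.01 scaled CPM), which was at 0.967 and 0.113 in the eosinophil groups. Of the platelet and erythroid markers in ILC2s, Hba-a1 stood at 0.391 scaled CPM alone and 14.4 with eosinophils, while Itga2b stood at 3.60 and 1.21. Of the neutrophil markers, Mpo stood at 0.0417 and 2.42 scaled CPM and Elane at 0.0 and 0.726. Ngp (0.062 and 0.0137) and Mmp8 (0.0567 and 0.0426) went the other way. S100a8, S100a9 and Stfa2l1 had no count in either ILC2 group, and Ly6g, Camp, Ltf and Cxcr2 reached at most 0.0842 scaled CPM. The basophil and mast cell list summed to 222 to 240 CPM alone and 84.6 to 105 with eosinophils, mostly through Kit (133 and 55.5 scaled CPM) and Cd200r3 (49.6 and 26.7), while Mcpt8 stood at 0.0751 and 0.325. The B cell list summed to 157 to 173 and 62.0 to 68.9 CPM, mostly through Ighm (124 and 47.4 scaled CPM), while Cd22 stood at 0.165 and 3.03 and Cd79b at 5.27 and 7.64. In ILC2s the T cell list summed to 121 to 131 CPM alone and 78.6 to 83.3 with eosinophils, mostly through Trbc2 (88.7 and 58.6 scaled CPM). Trbc1 (5.8 and 8.25) and Cd3d (0.449 and 1.01) went the other way. The monocyte, macrophage and dendritic cell list summed there to 25.5 to 28.5 and 27.2 to 35.8 CPM, mostly through Xcr1 (19.1 and 22.8 scaled CPM). The part of these markers in the ILC2 results was not tested. In eosinophil libraries the 11 basophil and mast cell markers summed to 233 to 256 CPM alone and 110 to 118 with ILC2s, most of it Gata2 (184 and 94.2 scaled CPM), and the 11 neutrophil markers summed to 189 to 201 and 108 to 120 CPM, most of it Cxcr2. Their part in the eosinophil falls of Ier3, Nfkbiz, Bcl3 and Cd83 was not tested. In eosinophil libraries the B cell list summed to 173 to 201 CPM alone and 215 to 241 with ILC2s, mostly through Ighm (209 and 242 scaled CPM). Its members Ms4a1 and Pax5 were each under 0.4 CPM in every group. Of the monocyte and dendritic cell list, Ms4a7 and Cd209a were under 0.5 CPM in every group. In eosinophils alone and with ILC2s, Adgre1 stood at 1830 and 1630 scaled CPM, Csf1r at 442 and 481 and Ly6c2 at 49.5 and 23.1. The part of these genes in the eosinophil results was not tested. The 11 monocyte, macrophage and dendritic cell genes, which eosinophils express in part, summed to 1910 to 1960 CPM in eosinophils alone and 1800 to 1830 with ILC2s, and the 7 platelet and erythroid genes to 498 to 534 and 498 to 514.

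Between the cell types cultured alone, most members were higher in eosinophils. Of 38 tested, 25 were lower in ILC2s (39.9% of all genes were) and 11 higher (40.8% of all genes). These make 94.7% called, where 80.7% of 14525 genes were, and the median log2 fold change was -0.74 over members and 0.0274 over all genes. Scaling by library totals, which moved the median of all genes by 0.57, gave 19 lower and 15 higher. Cell type, tissue and cytokine pretreatment cannot be told apart in this comparison, and its groups are also the controls of the coculture comparisons. By length, eosinophils alone held most Nfkbia, Irak3, Birc3 and Myd88, at 72.5 ± 10.9, 69.6 ± 3.17, 64.5 ± 0.394 and 61.3 ± 1.91 scaled CPM per kb of exon. Irak3 and Birc3 lay within the spread of Nfkbia, and Myd88 just under it. ILC2s alone held most Nfkb1, Rela and Nfkbia, at 70.4 ± 1.09, 43.1 ± 1.15 and 41.5 ± 2.0 scaled CPM per kb, of which Rela and Nfkbia lay within their spread.

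The members furthest apart between the cells were Ikbke (log2 fold change 4.90, ILC2 against eosinophil) and Traf1 (3.05) on the ILC2 side, and Tnfaip2, Ier3 (-5.95) and Cd83 on the eosinophil side. For Tnfaip2 the eosinophil to ILC2 ratio was 851 (exact 95% counting interval 291 to 4130), resting on 3 counts in ILC2s. Of the 5 feedback regulators, Tnfaip3 (-2.25), Zc3h12a (-1.85) and Tnip3 (-2.24) were lower in ILC2s alone, and Cyld (0.86) and Tnip1 (0.55) were higher. Tnip3 had 16 counts in ILC2s alone and 52 in eosinophils alone. Tnip3, Tnfaip2 and Cd83 passed the low-count filter here only through the eosinophil group. Traf6, Map3k14, Chuk and Nfkb2, called lower in ILC2s by 0.21 to 0.29 on the log2 scale, turned to higher with library totals (0.28 to 0.36).

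In coculture the cells still differed in 32 of 37 tested members (86.5%, with 84% of 14634 genes called), with 25 lower (40.5% of all genes) and 7 higher (43.6% of all genes) in ILC2s. Library totals gave 19 lower and 15 higher, and upper quartile scaling 21 and 11. Bcl3 and Map3k14 had been lower in ILC2s alone (-2.02 and -0.27) and were higher in cocultured ILC2s (1.14 and 0.59), though Map3k14 was already higher alone with library totals (0.30). Relb had been higher in ILC2s alone (0.28) and was lower in the cocultured cells (-0.53), but its call between cells alone was lost without ILC2 alone replicate 1 (0.22, edgeR adjusted p = 0.058) or eosinophil alone replicate 2 (0.18, edgeR adjusted p = 0.062). For Bcl3 per length, cocultured ILC2s stood at 52.5 ± 2.01 scaled CPM per kb, behind only Nfkb1 and Nfkbia among the members, and Birc3 led in cocultured eosinophils at 102 ± 1.5. The Ier3 difference was -5.95 between cells alone and -0.61 between cocultured cells, where it was not called with library totals (-0.21, edgeR adjusted p = 0.13), and that of Cd83 was no longer called (0.05, edgeR adjusted p = 0.89).

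**Figure D3:**
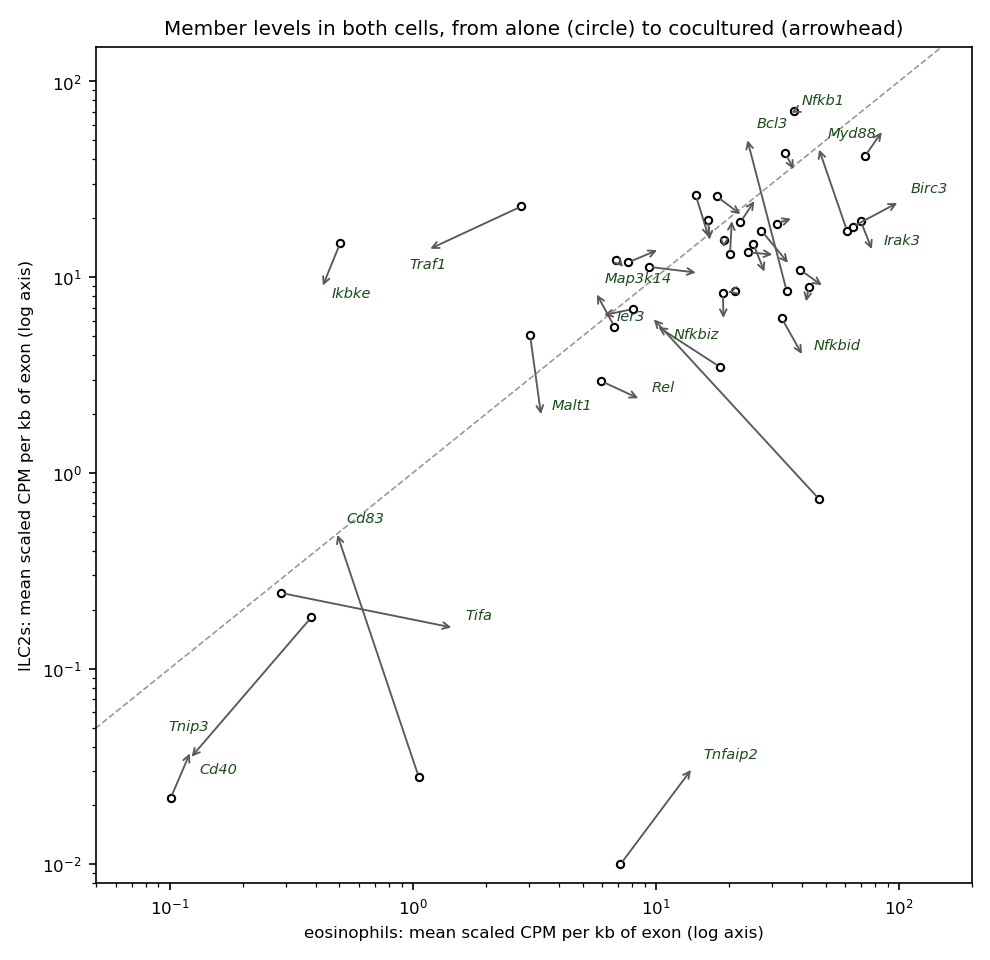
Mean scaled CPM per kb of exon in eosinophils (x) and ILC2s (y), both on log axes, with a circle for the 2 cells alone and an arrowhead for the cocultured cells, and a dashed line of equal level. Bcl3 crossed the line from eosinophil-high to ILC2-high, and the ILC2 value of Tnfaip2 rests on 3 and 11 counts.

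Whether the ILC2 and eosinophil responses differed was tested in 1 fit of the 12 libraries. It called 29 of 38 members (76.3%, with 51.5% of 15745 genes called). For 10 the ILC2 response minus the eosinophil response was above 0 (26.8% of all genes), and for 19 below 0 (24.8% of all genes). With genes under 10 CPM left out, 79.4% of 34 members and 68.3% of 8974 genes were called. By p the leading members were Bcl3 (difference 3.18 ± 0.09, edgeR adjusted p = 8.7e-19), Myd88 (1.85 ± 0.073, edgeR adjusted p = 4.9e-16), Ier3 (5.36 ± 0.22, edgeR adjusted p = 1.6e-15) and Malt1 (-1.57 ± 0.098, edgeR adjusted p = 2.7e-12). All 4 feedback genes that could be tested in both cells had a lower response in ILC2s, from -0.27 for Tnfaip3 to -0.98 for Cyld. Birc3 rose in both cells, and more in eosinophils (-0.22 ± 0.069, edgeR adjusted p = 0.01). Nfkb1, Nfkbie and Nfkbia did not pass (edgeR adjusted p = 0.87, 0.45 and 0.13).

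Other genes of the pathway were read from 3 further lists. Of 24 receptors that signal to NF-kB, 19 were tested in ILC2s, where 7 rose and 8 fell (36.8% and 42.1%, against 36.8% and 35.6% of all genes). In eosinophils 18 were tested, where 1 rose and 10 fell (5.56% and 55.6%, against 11.4% and 13.5% of all genes). By p the leading rises in ILC2s were the TNF receptor genes Tnfrsf8 and Tnfrsf18, which encode CD30 and GITR. Tnfrsf18 rose from 48.0, 43.3 and 43.9 to 133, 134 and 141 scaled CPM (1.59 ± 0.047, edgeR adjusted p = 2.8e-22) and fell in eosinophils from 76.1, 74.8 and 80.3 to 38.8, 35.8 and 35.5 (-1.10 ± 0.069, edgeR adjusted p = 5.7e-08). Tnfrsf8 went from 1.06, 0.451 and 0.21 to 534, 487 and 441 scaled CPM in ILC2s (edgeR adjusted p = 7.5e-31), and passed the low-count filter only through the cocultured group. Il18rap, the accessory chain of the IL-18 receptor, fell in eosinophils from 158, 174 and 137 to 44.3, 44.8 and 36.5 scaled CPM (-1.93 ± 0.10, edgeR adjusted p = 9.2e-09). Il1rl1, the IL-33 receptor gene, fell there as well (-0.64), and was not called in ILC2s. Il1rl1 lay outside the rule for named genes and was chosen after its values were seen.

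Of 43 further signalling proteins, 14 rose and 25 fell in ILC2s (32.6% and 58.1%, against 36.8% and 35.6% of all genes), and 6 rose and 2 fell of 42 tested in eosinophils. The eosinophil share called was 19.0%, below the 24.9% of all genes. Map3k8, the kinase TPL2 held by p105, rose in ILC2s from 14.0, 14.6 and 16.0 to 55.5, 46.9 and 46.1 scaled CPM (1.72 ± 0.078, edgeR adjusted p = 8e-18). Ube2n, the ubiquitin-conjugating enzyme Ubc13 that works with TRAF6, rose in ILC2s from 38.1, 39.8 and 43.3 to 82.0, 77.7 and 82.4 scaled CPM (0.99 ± 0.054, edgeR adjusted p = 6.4e-16). In eosinophils the TRAF-binding Tank rose from 178, 175 and 162 to 252, 265 and 273 scaled CPM (0.59 ± 0.062, edgeR adjusted p = 9e-06), and the kinase gene Map3k3 from 147, 147 and 140 to 200, 227 and 215 (0.54 ± 0.063, edgeR adjusted p = 2.6e-05).

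Of 48 further target genes, 30 could be tested in ILC2s, where 16 rose and 9 fell (53.3% and 30.0%, against 36.8% and 35.6% of all genes). In eosinophils 38 could be tested, where 8 rose and 9 fell (21.1% and 23.7%, against 11.4% and 13.5%). Csf1, the macrophage growth factor, fell in ILC2s from 216, 205 and 214 to 28.2, 29.0 and 33.1 scaled CPM (-2.82 ± 0.05, edgeR adjusted p = 2.3e-27) and rose in eosinophils (0.69 ± 0.062). Cd69, an early activation marker, rose in ILC2s from 16.8, 14.0 and 17.3 to 122, 127 and 113 scaled CPM (2.90 ± 0.064, edgeR adjusted p = 2.6e-25) and fell in eosinophils (-1.68 ± 0.17). Bcl2l1, which encodes the survival protein BCL-XL, fell in eosinophils from 251, 249 and 269 to 121, 122 and 131 scaled CPM (-1.07 ± 0.06, edgeR adjusted p = 1.7e-08). Il1rn, the IL-1 receptor antagonist, rose there from 855, 823 and 908 to 1550, 1630 and 1870 scaled CPM (0.94 ± 0.069, edgeR adjusted p = 2.6e-07). Known target genes thus moved in both directions within each cell.

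**Figure D4:**
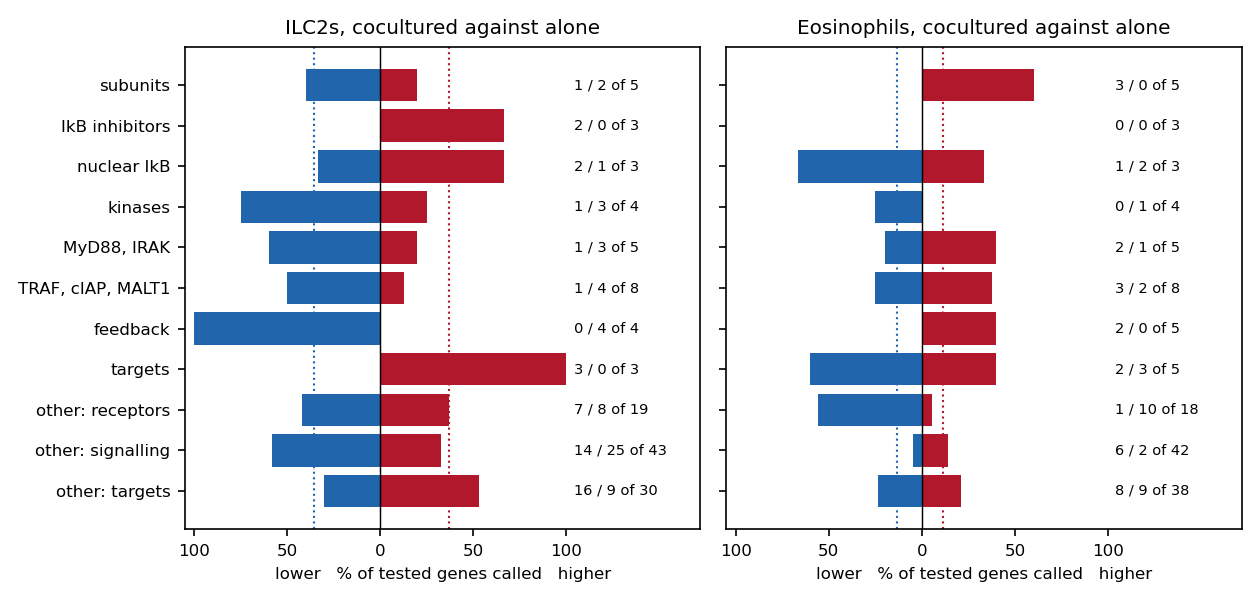
Share of tested genes called higher (red, to the right) and lower (blue, to the left) for each role and for the 3 further lists, in ILC2s and in eosinophils, with the numbers higher and lower of those tested. Dotted lines mark the shares over all genes, 36.8% and 35.6% in ILC2s and 11.4% and 13.5% in eosinophils, and the receptors in eosinophils stand at 10 lower and 1 higher of 18.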

How the data were processed

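The authors deposited 1 table of whole-number read counts per Ensembl gene, not normalized. Per the submitters' processing notes, the tools included Trimmomatic 0.36, STAR 2.5.2b and Subread 1.5.2 with featureCounts, and the build was mm10. The sources used here do not give the strand setting, the handling of multi-mapping reads or the annotation release. GENCODE M21 gave symbols to 49056 of the 49315 genes, with positions and exon lengths. No 2 replicates agreed within sampling noise (chi-square over degrees of freedom from 2.57 to 19.51).

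Comparisons were fitted in edgeR 4.0.16 (R 4.3.3) with filterByExpr, TMM and the quasi-likelihood test without covariates, on the 6 libraries concerned, or all 12 for the difference of responses (ILC2 minus eosinophil). The SE is the log2 fold change over the square root of its F statistic. Alternatives were DESeq2 1.42.0, library totals, upper quartile scaling, no low-count filter, a replicate block, a fit of all 12 libraries and leaving out each library. On simulated data with 200 changed genes, 77.6% of 2-fold changes were recovered in the ILC2 comparison (14205 genes) and 86.6% in the eosinophil comparison (12895 genes). False calls made up 2.34% and 4.32% of calls. All genes shared 1 spread in each simulation, and far fewer changed than the 72.4% and 24.9% called in the data. Recovery in the data may therefore differ from these shares. Counting intervals and floors cover counting error only. Levels are on 1 scale over 12 libraries, so folds from them differ slightly from fitted ones.

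By rule, every library's value and full statistics were given for the 2 members of smallest p per role in each coculture comparison, the 4 of smallest p in the difference of responses and, from each further list, the 2 called genes of smallest p in each coculture comparison. Other per-library values were printed, and other genes named, after their values were seen. The members and lists were chosen with earlier results of these data known.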

Additional observations from a re-analysis of the deposited data

Results flagged for a closer look

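For 29 members the response to coculture differed between the cells in edgeR's test of that difference (adjusted p under 0.05). Values here are the ILC2 log2 fold change minus the eosinophil one. Above 0 stood Ier3 (5.36), Cd83 (5.22), Bcl3 (3.18), Myd88 (1.85), Nfkbiz (1.59), Map3k14 (0.87), Nfkbib (0.60), Traf1 (0.54), Traf6 (0.33) and Nfkb2 (0.19). The Cd83 value rests on 5 counts over the ILC2 alone libraries. Traf1 fell in both cells and fell further in eosinophils, and Nfkb2 rose in both. Among the subunits and IkB genes, values below 0 were read for Nfkbid (-0.97), Rel (-0.87), Relb (-0.80) and Rela (-0.48). Kinases and IRAKs below 0 were Irak2 (-1.0), Irak3 (-0.72), Irak4 (-0.71), Ikbke (-0.54) and Ikbkb (-0.51). In the TRAF and cIAP group these were Tifa (-2.99), Malt1 (-1.57), Birc2 (-0.44), Traf3 (-0.44), Traf2 (-0.31) and Birc3 (-0.22), and among feedback genes Cyld (-0.98), Tnip1 (-0.71), Zc3h12a (-0.63) and Tnfaip3 (-0.27).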

How the results depend on the processing

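Of the members called, 27 of 28 in ILC2s (all but Icam1), 17 of 22 in eosinophils, 29 of 36 between cells alone, 25 of 32 between cocultured cells and 25 of 29 in the difference of responses were called under every alternative run. In eosinophils the 5 lost somewhere were Cd40, Cd83, Map3k14, Nfkb2 and Nfkbid, and in the difference of responses Ikbke, Nfkb2, Traf2 and Traf6 were lost. No member called in either coculture comparison turned sign under these alternatives. The median over all genes shifted with library totals by 0.57 between cells alone and 0.396 between cocultured cells, and with upper quartile scaling by 0.234 and 0.199, and the cause of the turns listed next was not tested beyond that shift. Between cells alone, library totals turned Traf6 (0.35), Map3k14 (0.30), Chuk (0.28) and Nfkb2 (0.36) to higher in ILC2s, and upper quartile Traf6 (0.02) and Nfkb2 (0.02). Between cocultured cells, library totals turned Nfkbib (0.36), Cyld (0.26), Birc2 (0.21), Tnip1 (0.21), Rela (0.25) and Nfkb2 (0.36), and upper quartile Nfkbib (0.17), Cyld (0.06), Birc2 (0.02), Tnip1 (0.02), Rela (0.05) and Nfkb2 (0.16). The count of members higher in cocultured ILC2s went from 7 to 15 and 11 under these scalings. In the difference of responses Nfkb1 turned to -0.17 with library totals. Leaving out 1 library gave 11 to 12 members higher and 17 to 19 lower in ILC2s, and 11 to 14 and 6 to 9 in eosinophils. Same-numbered replicates did not deviate together (correlations -0.0176 to 0.0967), so the numbers were not taken as pairs. With the replicate block, 12 members were higher and 18 lower in ILC2s, 17 and 9 in eosinophils, 11 and 26 between cells alone, 7 and 25 between cocultured cells and 10 and 19 in the difference of responses. Depth limits Cd40, Cd83, Tnip3, Tifa and, in ILC2s, Tnfaip2, which rest on few counts.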
